A study of Mus musculus with 10 samples.

Results

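Microglia, the resident macrophages of the brain, were followed here through 36 genes of the 29883 in the count table of the nucleus accumbens (NAc). The genes were listed by name as known genes of microglia and of complement, with earlier results of these data in view, and all 36 were found in the table. By role they were 6 complement genes, 12 surface receptors, transporters and secreted proteins of resting microglia, 7 Fc receptors, adaptors and integrins, 8 genes of the lysosome, membrane and cytoskeleton, and 3 transcription factors. This region of the ventral striatum, known for its role in reward, was taken from 5 C57BL/6J (B6) and 5 DBA/2J (D2) male mice, and each mouse gave 1 RNA-seq library. All 10 mice were ethanol-naive and received no treatment, the labels give them no age, and the methods give the same age for both inbred strains. The comparison asks how the strains, which differ in their drinking of ethanol, differ in gene expression before any exposure.

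Microglia survey the brain with fine processes, take up debris and synapses, and depend on the receptor CSF1R, while their resting state is marked by genes such as P2ry12, Tmem119 and Cx3cr1. In the brain they are the main source of C1q, the protein that starts the classical pathway of complement and is built from A, B and C chains encoded by C1qa, C1qb and C1qc. C1q bound to a surface leads to cleavage of C4 and then C3, and C3 fragments on synapses or debris are read by the integrin that contains ITGAM. In whole tissue, fewer microglia and less RNA per microglial cell cannot be told apart.

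Counts were 96977262 to 116776714 per library. B6 replicates 3 and 5 stood apart from the other mice, with a summed level of 5 cortical neuron markers of 99600 and 100886 normalized counts, against 7931 to 17043 in the other B6 mice and 22866 to 62011 in D2. A normalized count is a count divided by the library's effective size and multiplied by the mean effective size, so it is not scaled by gene length. Fold changes are for D2 against B6 on the log2 scale, so negative values are lower in D2, and a gene is called where the adjusted p of edgeR's quasi-likelihood test, corrected over all 29883 genes by the Benjamini-Hochberg method, is under 0.05. The reads of both strains were aligned to the B6 genome, and a lower level in D2 and D2 reads lost to allelic differences cannot be told apart. The resting markers Tmem119, P2ry12, Cx3cr1, Csf1r and Siglech had means of 1289 to 10933 normalized counts, and every one of them was measured in every mouse.

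The start regions of the 3 members that fell by at least 1 on the log2 scale are printed because strain differences in the level of these genes were the largest of the list. Each run covers 250 bases before and 50 bases after the start of transcription in RefSeq, all genes being on the reverse strand. The windows come from the RefSeq table of GRCm38.p6 and were matched letter for letter to GRCm39, whose coordinates are given. They are the B6 sequence, and no D2 sequence was used. C1qb lies at GRCm39 chr4:136613462-136613761, C1qc at chr4:136620176-136620475 and Fcrls at chr3:87170782-87171081.
C1qb: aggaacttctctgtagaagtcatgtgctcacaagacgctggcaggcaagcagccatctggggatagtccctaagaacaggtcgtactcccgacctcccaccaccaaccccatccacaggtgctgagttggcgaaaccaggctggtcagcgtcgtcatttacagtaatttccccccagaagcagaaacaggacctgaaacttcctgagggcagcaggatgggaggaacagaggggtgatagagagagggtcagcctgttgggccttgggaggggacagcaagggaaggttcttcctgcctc
C1qc: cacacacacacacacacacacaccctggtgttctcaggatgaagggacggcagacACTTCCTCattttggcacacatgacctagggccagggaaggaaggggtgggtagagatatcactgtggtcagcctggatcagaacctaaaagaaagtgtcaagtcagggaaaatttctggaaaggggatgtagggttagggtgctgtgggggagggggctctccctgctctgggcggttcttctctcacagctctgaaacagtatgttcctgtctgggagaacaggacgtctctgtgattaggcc
Fcrls: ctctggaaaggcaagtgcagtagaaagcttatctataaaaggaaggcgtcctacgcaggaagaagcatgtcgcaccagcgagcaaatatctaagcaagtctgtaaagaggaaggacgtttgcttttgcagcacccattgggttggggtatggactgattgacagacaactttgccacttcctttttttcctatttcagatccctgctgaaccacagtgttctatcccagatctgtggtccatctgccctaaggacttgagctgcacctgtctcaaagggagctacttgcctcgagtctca
Capitals mark the word GAGGAAGT, read here from the other strand, a purine-rich word that holds the core of the site bound by PU.1, the product of the member Spi1. On both strands it was present in 1052 of 32851 windows of this length (3.2%), and in 4 of the 31 windows that the 27 members with an entry have, those of C1qc, Cd53, Ctss and Cyth4. Of these 4 genes only C1qc was called between the strains, and a match is only a description of the letters. Only this exact word was searched. The printed runs of C1qb and Fcrls each hold it, also on the other strand, except for its first letter. A run without capitals can therefore still hold such a core.

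Of the 36 members, 13 fell in D2, 3 rose and 20 did not pass the test. Of all genes in the table, 18.3% were called, 9.83% lower and 8.5% higher in D2. Among genes with a mean of at least 100 normalized counts 23.8% were called, and of the 35 members at such a level 15 were called. The genes that fell were C1qa, C1qb, C1qc, C3ar1, Fcrls, Siglech, Selplg, Olfml3, Tyrobp, Trem2, Fcer1g, Fcgr3 and Cd68, and those that rose were C3, C4b and P2ry12. All 6 complement genes were called, against 5 of 12 surface genes, 4 of 7 Fc receptors and adaptors, 1 of 8 lysosome and membrane genes and 0 of 3 transcription factors, where DESeq2 also called 0 and 0 had an unadjusted p under 0.05 in edgeR. The normalized counts of the strains did not overlap for 14 members, as for 16% of all genes. A fall of at least 1 was found for 3 members, where 3.06% of all genes fell as much. The median log2 fold change was -0.17 over the members and 0.0036 over all genes, and 27 of 36 members had a value below 0.

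**Figure D1:**
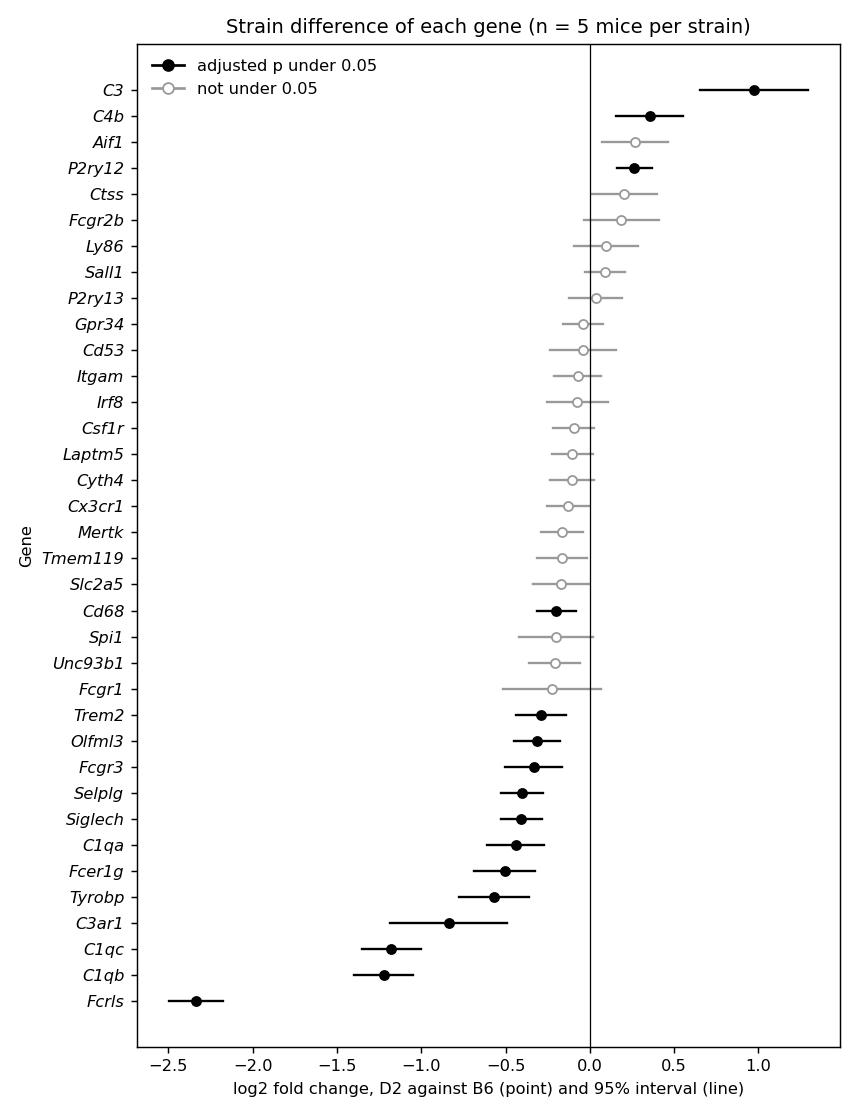
Log2 fold change of D2 against B6 (x axis) for the 36 members (y axis, ordered by fold change), with lines for the 95% interval of the edgeR fit in 5 mice per strain. Fcrls at -2.34, C1qb at -1.22 and C1qc at -1.18 lie farthest to the left and C3 at 0.98 farthest to the right, while most members sit within a narrow band around 0.

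**Figure D2:**
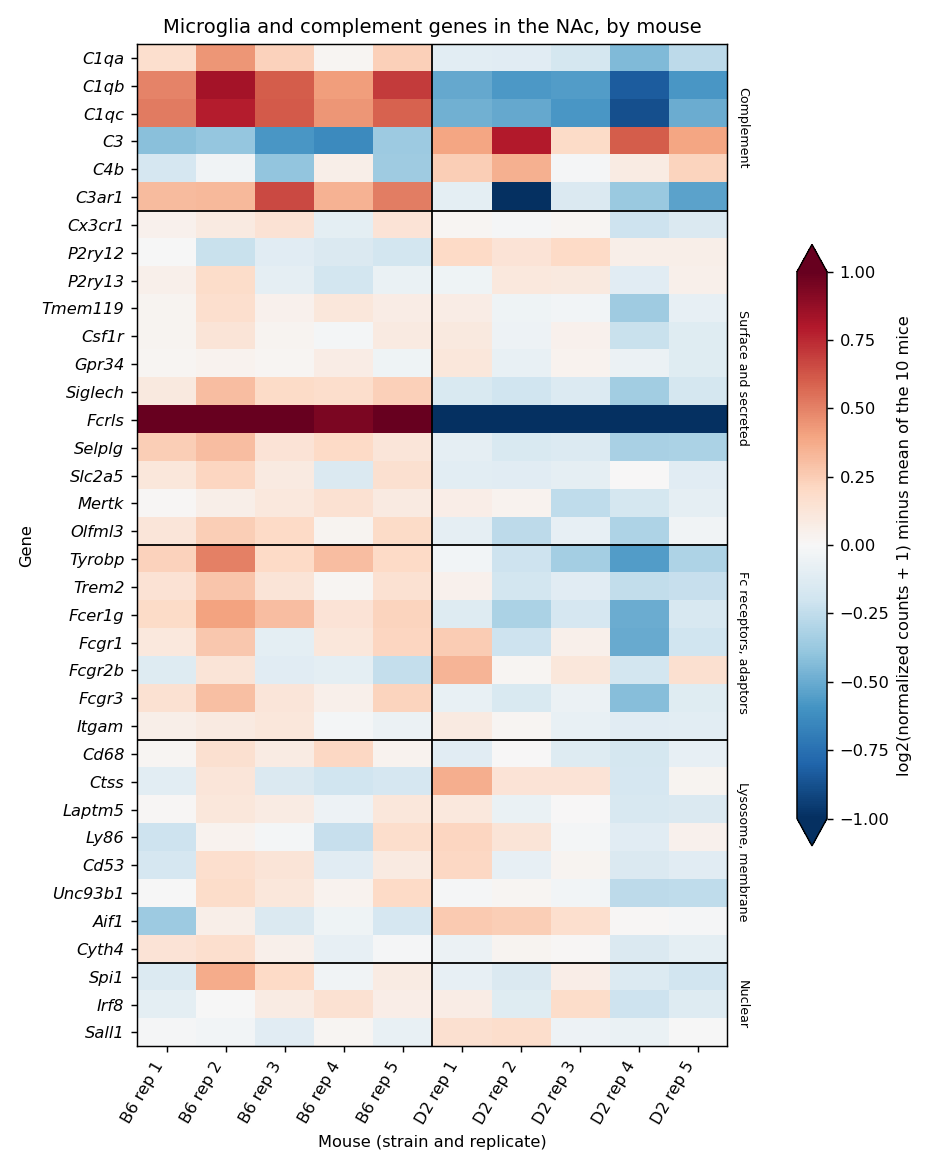
Log2 of the normalized count plus 1 of each member in each mouse relative to the mean of all 10 mice (colour, clipped at 1 in either direction), with members in rows by role and mice in columns by strain. All D2 mice are below all B6 mice for C1qb, C1qc and Fcrls and above them for C3 and P2ry12, and D2 replicate 4 was the lowest of its strain for 27 of the 36 members.

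The B and C chains of C1q fell by more than the A chain. C1qb (ENSMUSG00000036905, chr4:136606009-136613511) had 3618, 4569.9, 3894, 3431 and 4153 normalized counts in B6 replicates 1 to 5 and 1799, 1725, 1739, 1441 and 1715 in D2 replicates 1 to 5. Every D2 mouse was below every B6 mouse, and the D2 mean was 2.34-fold lower (log2 fold change -1.22, SE 0.0808, adjusted p = 2.52e-07). C1qc (ENSMUSG00000036896, chr4:136616466-136620376), next to it in the genome, had 3793, 4555, 4031, 3579.5 and 3985 in B6 and 1897, 1849, 1761, 1437 and 1869 in D2. Again the strains did not overlap, with a 2.26-fold lower mean in D2 (log2 fold change -1.18, SE 0.0811, adjusted p = 3.68e-07). C1qa (ENSMUSG00000036887, chr4:136623223-136626161) had 4263, 5131, 4446, 3846 and 4455 in B6 and 3528, 3499, 3343, 2783 and 3160.1 in D2. The highest D2 mouse was below the lowest B6 mouse, but the difference was only 1.36-fold (log2 fold change -0.44, SE 0.0784, adjusted p = 0.00142).

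The chains were next compared as ratios within each mouse, which restate the same counts as the fold changes above and are no separate evidence. B6 mice had 0.888 ± 0.0302 counts of C1qb for each count of C1qa, with a range of 0.849 to 0.932, and D2 mice had 0.517 ± 0.0180, with a range of 0.493 to 0.543 (mean ± SD, n = 5 per strain). For C1qc against C1qa the ratio averaged 0.902 ± 0.0177 in B6 against 0.540 ± 0.0297 in D2 (SD, n = 5 per strain). By exact permutation of the strain labels (two-sided), both ratios differed between the strains with p = 0.0079, the smallest value the design allows (0.02 after adjustment over 5 ratios, which were chosen after their values were seen). C1qb against C1qc averaged 0.985 ± 0.0375 in B6 against 0.958 ± 0.0361 in D2 (SD, n = 5 per strain; exact permutation test, p = 0.25), so the counts of the B and C chains stayed close to each other in both strains. In B6 each of these chains stood close to the count of C1qa, and in D2 close to a ratio of 0.517 to 0.540.

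The 3 genes lie side by side on the reverse strand of chromosome 4 between positions 136606009 and 136626161. Within 200 kb and with a mean of at least 100 normalized counts lay 3 other genes. The ephrin receptor genes Epha8 and Ephb2 had log2 fold changes of -0.21 (adjusted p = 0.223) and -0.03 (adjusted p = 0.925). Zbtb40, which encodes a zinc finger protein, was higher in D2 (0.31, adjusted p = 0.0121). None of these 3 neighbours was called lower.

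Downstream of C1q, C3 and C4b were higher in D2. C3 (ENSMUSG00000024164), the protein on which all complement pathways meet, had 42.5, 43.4, 37.8, 36.4 and 44.2 normalized counts in B6 and 75.2, 99.6, 65.2, 87.4 and 75.5 in D2. The lowest D2 mouse was above the highest B6 mouse, and the D2 mean was 1.97-fold higher (log2 fold change 0.98, SE 0.148, adjusted p = 4.05e-04). It was the least abundant member, with means of 40.9 ± 3.54 and 80.6 ± 13.2 (SD, n = 5 per strain). C4b (ENSMUSG00000073418), which encodes complement C4 and is made largely by astrocytes and oligodendrocytes, had 2899, 3186, 2478, 3399 and 2549 in B6 and 3873, 4177, 3244, 3446 and 3814 in D2. Its strains overlapped, since B6 replicate 4 was above D2 replicate 3, and the rise was small (log2 fold change 0.35, SE 0.0924, adjusted p = 0.0172). B6 replicates 3 and 5, the mice with high cortical neuron markers, had the lowest C4b counts of their strain. Without this pair the log2 fold change was 0.23 and the adjusted p 0.0594, so the call was lost. That fit has fewer B6 mice, and in it all 5 cortical neuron markers were called between the strains, so it also sets apart strains of unlike cortical content. In each of the 10 fits that left out a single mouse, C4b was called. The near copy C4a had 549.8 ± 59.9 in B6 and 581 ± 24.2 in D2 (SD, n = 5 per strain; log2 fold change 0.08, adjusted p = 0.569). Of the 150-base stretches of C4b, 8.04% also occur in C4a, so counts of the pair can be shared.

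C3ar1 (ENSMUSG00000040552), the receptor for the C3 fragment C3a, fell while C3 rose. It had 180.4, 182, 230.4, 185 and 207 normalized counts in B6 and 136, 71.3, 131, 112 and 99.9 in D2. No D2 mouse reached the B6 range, and the mean was 1.79-fold lower (log2 fold change -0.84, SE 0.160, adjusted p = 0.00239). In D2 the 5 mice spread widely, with replicate 2 lowest and replicate 1 highest.

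**Figure D3:**
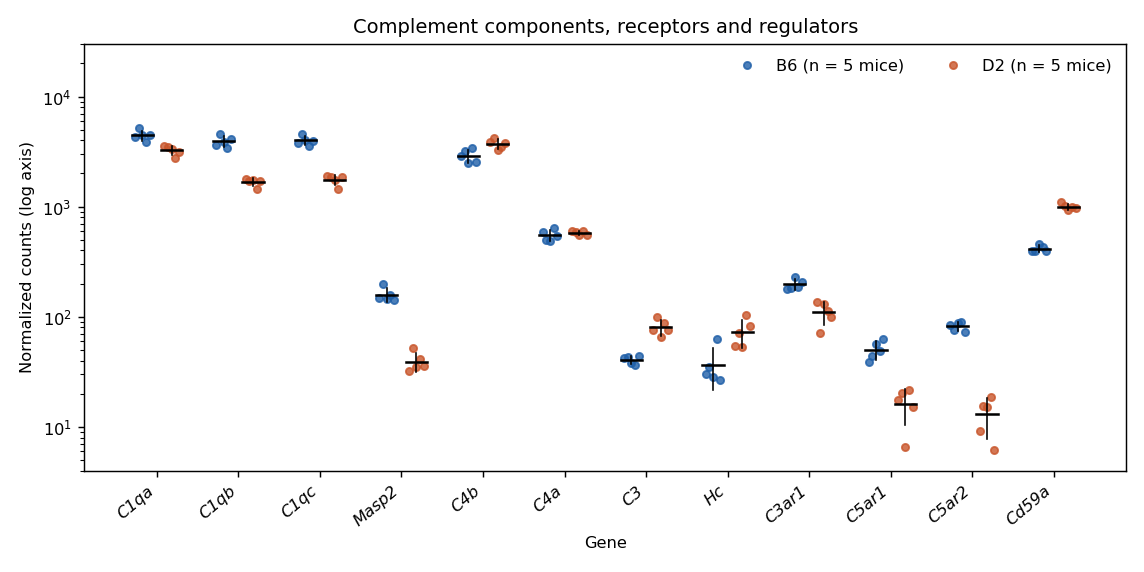
Normalized counts (y axis, log scale) of 12 complement genes (x axis) in each mouse (points, B6 blue and D2 orange), with bars for the mean and vertical lines for the SD of 5 mice. C1qb, C1qc, Masp2, C3ar1, C5ar1 and C5ar2 lie lower in D2 and C3 and Cd59a higher, each with separate strains, while C4a at 549.8 and 581 lies level.

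Complement was followed further in 39 genes that are not members, of which 36 were in the table; C6, C9 and Cfd had no row. In D2, 9 fell and 3 rose, beside 9.83% and 8.5% of all genes, and the median log2 fold change was -0.06. Among those with a mean of at least 100 normalized counts, the largest change was that of Cd59a, an inhibitor of the membrane attack complex, with 416 ± 27.7 normalized counts in B6 and 1000.3 ± 61.2 in D2 (SD, n = 5 per strain; log2 fold change 1.27, adjusted p = 3.53e-08). Csmd1, a complement inhibitor of neurons, fell (log2 fold change -0.19, adjusted p = 0.00591).

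Mbl2, Masp2, C5ar1, C5ar2 and Itgb2 are named after their values were seen. Mbl2, a lectin that starts the lectin pathway, had 0 to 8.55 normalized counts in B6 and 34.7 to 69.6 in D2, so it was close to absent in B6 (log2 fold change 3.86, adjusted p = 1.18e-04). Masp2, a protease of the lectin pathway, had 158 ± 22.9 normalized counts in B6 and 39.2 ± 7.80 in D2 (SD, n = 5 per strain; log2 fold change -2.01, adjusted p = 1.08e-06). The C5a receptors fell, C5ar1 from 50.2 ± 9.51 to 16.3 ± 5.96 (log2 fold change -1.61, adjusted p = 7.66e-04) and C5ar2 from a range of 72.0 to 89.8 to one of 6.12 to 18.8 (log2 fold change -2.64, adjusted p = 3.82e-06; SD, n = 5 per strain). With C3ar1, each of the receptors for the C3a and C5a fragments was therefore lower in D2. Hc, which encodes C5, a protein that D2 mice are known to lack, had 29.9, 35.2, 28.7, 63.1 and 26.7 in B6 and 54.1, 71.3, 52.9, 103 and 81.6 in D2. Its RNA was counted in every mouse and was higher in D2, with overlapping strains (log2 fold change 0.98, adjusted p = 0.0212). The integrin subunit Itgb2, the partner of the member Itgam, fell (log2 fold change -0.41, adjusted p = 0.0197) with overlapping strains.

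The largest change of the 36 members was that of Fcrls, a scavenger receptor of the Fc receptor-like family that marks microglia in the mouse. The gene (ENSMUSG00000015852, chr3:87156616-87181827, reverse strand) is named Fcrl2 in the annotation used here and was matched to Fcrls through the RefSeq start region printed above. Its normalized counts were 2418, 2718, 2620.2, 2145 and 2678 in B6 and 552, 494, 492, 463 and 489 in D2. The strains lay far apart and each was tight, with means of 2516 ± 237 and 498 ± 32.6 (SD, n = 5 per strain). The level in D2 was 5.05-fold lower (log2 fold change -2.34, SE 0.0742, adjusted p = 4.97e-10). Kirrel1, its only neighbour within 200 kb with a mean of at least 100 normalized counts, had a log2 fold change of 0.12 (adjusted p = 0.709).

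**Figure D4:**
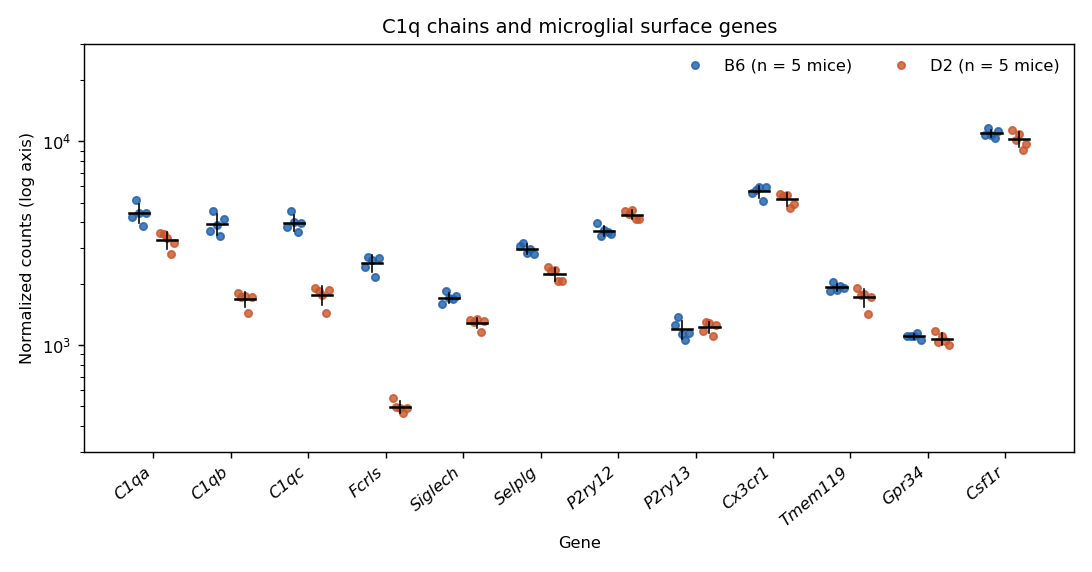
Normalized counts (y axis, log scale) of the C1q chains and 9 surface genes (x axis) in each mouse (points, B6 blue and D2 orange), with bars for the mean and vertical lines for the SD of 5 mice. Fcrls falls from 2516 to 498, C1qb and C1qc fall together, C1qa falls by less, and P2ry12 rises from 3636 to 4365.

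Siglech, Selplg and Olfml3 fell by smaller amounts. Siglech, a sialic acid-binding receptor that signals through TYROBP, had 1585, 1839.8, 1695, 1673 and 1746 normalized counts in B6 and 1333, 1290.3, 1346, 1163 and 1313 in D2 (log2 fold change -0.41, SE 0.0553, adjusted p = 1.75e-04). Selplg, the ligand of P-selectin, had 3050.1, 3178, 2815, 2948 and 2794 in B6 and 2414, 2304, 2337, 2055 and 2063 in D2 (log2 fold change -0.40, SE 0.0567, adjusted p = 2.23e-04). Neither gene had overlapping strains. The secreted protein gene Olfml3 had 2072, 2265, 2193, 1950.1 and 2183 in B6 and 1791, 1594, 1799.7, 1542 and 1859 in D2 (log2 fold change -0.31, SE 0.0620, adjusted p = 0.00309). Its highest D2 mouse, replicate 5, was still below the lowest B6 mouse, replicate 4.

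P2ry12, the ADP receptor by which microglial processes find injured sites, rose. It had 3978, 3419, 3686, 3594 and 3501 normalized counts in B6 and 4561, 4375, 4580.0, 4155 and 4152 in D2. All D2 mice exceeded the highest B6 mouse, with a 1.20-fold higher mean (log2 fold change 0.26, SE 0.0475, adjusted p = 0.00155). Its neighbour P2ry13, also an ADP receptor, had 1192 ± 119.7 in B6 and 1220.1 ± 80.2 in D2 (SD, n = 5 per strain; log2 fold change 0.03, adjusted p = 0.825). P2ry12 against P2ry13 averaged 3.07 ± 0.347 in B6 against 3.59 ± 0.246 in D2, with overlapping strains (SD, n = 5 per strain; two-sided exact permutation test, p = 0.024, 0.04 after adjustment over 5 ratios). Of the exon bases of P2ry12, 9.17% overlap exons of Med12l on the other strand, and the sources used here do not state whether the counting used strand.

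The other 7 surface genes, P2ry13 among them, did not pass the test. Cx3cr1, the fractalkine receptor, had a log2 fold change of -0.13 (95% interval -0.25 to -0.01, adjusted p = 0.145). For Tmem119, a membrane protein found in brain only on microglia, it was -0.17 (95% interval -0.32 to -0.02, adjusted p = 0.124). Csf1r, the receptor for the survival factors CSF1 and IL34, had -0.10 (95% interval -0.22 to 0.02, adjusted p = 0.286), with 19.8% of its exon bases shared with Hmgxb3 on the other strand. Those of the lysophosphatidylserine receptor gene Gpr34 and the engulfment receptor gene Mertk were -0.04 (95% interval -0.16 to 0.08, adjusted p = 0.712) and -0.16 (95% interval -0.29 to -0.04, adjusted p = 0.0699), and that of the fructose transporter gene Slc2a5 was -0.17 (95% interval -0.34 to -0.01, adjusted p = 0.148). The lowest bound of these 6 intervals was -0.34, so falls of the size seen for Fcrls, C1qb and C1qc lie outside them.

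Among the Fc receptors and adaptors, 4 genes fell. Tyrobp, the adaptor DAP12 through which TREM2 and SIGLECH signal, had 1024, 1244, 1003, 1086 and 1003 normalized counts in B6 and 861, 757, 692, 593 and 705 in D2 (log2 fold change -0.57, SE 0.0957, adjusted p = 9.10e-04). Fcer1g, the common gamma chain of activating Fc receptors, had 589, 683, 639.6, 566 and 603 in B6 and 472, 414, 457, 366 and 459.9 in D2 (log2 fold change -0.51, SE 0.0840, adjusted p = 8.50e-04). In both, the strains did not overlap. Fcgr3, an activating Fc receptor for IgG, had 919, 1017, 901, 855 and 965 in B6 and 785, 744, 793, 615 and 759 in D2 (log2 fold change -0.33, SE 0.0770, adjusted p = 0.00836). Trem2, the lipid receptor linked to Alzheimer's disease, had 1147, 1253, 1135, 1049 and 1151 in B6 and 1068, 912, 958, 871 and 884 in D2 (log2 fold change -0.29, SE 0.0680, adjusted p = 0.0094). For Trem2 the strains overlapped, since D2 replicate 1 was above B6 replicate 4.

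Of the remaining genes of this group, the high-affinity receptor gene Fcgr1 had a log2 fold change of -0.22 (95% interval -0.51 to 0.06, adjusted p = 0.3). The inhibitory receptor gene Fcgr2b had 0.19 (95% interval -0.03 to 0.41, adjusted p = 0.255). Itgam, a chain of complement receptor CR3, had -0.07 (95% interval -0.21 to 0.07, adjusted p = 0.525), but 67.4% of its exon bases are shared with a gene model on the same strand and its counts are uncertain. Fcgr4, another receptor for IgG that is not a member, was low, with 17.6 normalized counts in B6 and 4.58 in D2 (log2 fold change -1.91, adjusted p = 0.0124).

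Of the lysosome, membrane and cytoskeleton genes 1 was called. Cd68, a lysosomal membrane protein of phagocytes, had 1343, 1483, 1406, 1529 and 1357 normalized counts in B6 and 1225, 1334, 1212, 1174 and 1255 in D2 (log2 fold change -0.20, SE 0.0539, adjusted p = 0.021). The strains did not overlap, by a margin of less than 10 counts between B6 replicate 1 and D2 replicate 2. Its call was lost in 3 of the 10 fits that left out a mouse (without B6 replicate 2, B6 replicate 4 or D2 replicate 4). It was also lost in the edgeR fit scaled by total counts (adjusted p = 0.0667). Aif1, which encodes the microglial marker IBA1, had 0.27 (95% interval 0.07 to 0.46, adjusted p = 0.0578), and Unc93b1, the chaperone of endosomal Toll-like receptors, had -0.21 (95% interval -0.36 to -0.06, adjusted p = 0.0549). DESeq2 called both, with adjusted p of 0.0200 for Aif1 and 0.0270 for Unc93b1. In edgeR, Aif1 was also called when scaled by total counts (adjusted p = 0.0390). Unc93b1 was called in edgeR with upper quartile scaling (adjusted p = 0.0447), filterByExpr (0.0410) and at least 10 counts in every library (0.0439). The cysteine protease gene Ctss, the most abundant of the group, had 0.20 (95% interval 0.01 to 0.40, adjusted p = 0.142). Laptm5, Ly86, Cd53 and Cyth4 had log2 fold changes of -0.10, 0.10, -0.04 and -0.11, with adjusted p of 0.241, 0.533, 0.829 and 0.266.

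The transcription factors did not pass the test. Spi1, whose product PU.1 is needed to form macrophages and microglia, had a log2 fold change of -0.20 (95% interval -0.42 to 0.02, adjusted p = 0.209). Irf8, which acts with PU.1, had -0.07 (95% interval -0.26 to 0.11, adjusted p = 0.628). Sall1, which in the brain's macrophages is particular to microglia, had 0.09 (95% interval -0.03 to 0.21, adjusted p = 0.311).

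Levels per length, compared as normalized counts per kilobase of merged exons, put C1qa first of the 36 members in B6 with 2750.5. It was followed by Tyrobp with 1572 and Csf1r with 1485. In D2 C1qc moved from rank 4 to 10, C1qb from 12 to 19 and Fcrls from 14 to 29. The exon length of C1qb in the annotation (6246 bases, against 2860 for C1qc) lowers its value per kilobase.

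The summed level of the 36 members was 79651 ± 3519 normalized counts in B6 and 69296 ± 4934 in D2 (SD, n = 5 per strain). The B6 mice ran from 75961 to 85362 and the D2 mice from 62166 to 75385, so the sums did not overlap, with a log2 ratio of -0.20. The gap was not spread evenly over the list. Much of it lay in the means of Fcrls (2516 in B6, 498 in D2), C1qb (3933, 1684) and C1qc (3989, 1763). By role, mean sums in B6 and D2 were 15490 and 10611 for complement, 39175 and 34335 for surface genes, and 5075 and 4123 for Fc receptors and adaptors. They were 15565 and 15743 for lysosome and membrane genes, and 4346 and 4484 for transcription factors. D2 replicate 4 was the lowest D2 mouse for 27 members, and B6 replicate 2 the highest B6 mouse for 23. The same mice were lowest and highest for 25 and 24 of 48 other microglial genes, so these mice stood at the ends of their strain beyond the members.

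Beside the members, 48 other microglial genes, such as Ptprc, were counted. In D2, 10 fell and 5 rose, beside 9.83% and 8.5% of all genes. The 48 genes had a median log2 fold change of -0.06 and a summed level of 55619 ± 2378 in B6 and 52922 ± 3118 in D2 (SD, n = 5 per strain). The largest changes of well measured genes among them were those of Crybb1, a crystallin gene expressed in microglia (log2 fold change -1.06, adjusted p = 9.41e-06), Parvg, an actin-linked adaptor (log2 fold change 0.82, adjusted p = 1.20e-05), and Cd14, a co-receptor for lipopolysaccharide (log2 fold change 0.69, adjusted p = 8.03e-05). Cd33, a sialic acid-binding inhibitory receptor, fell (log2 fold change -0.58, adjusted p = 2.71e-05), as did the lipid enzyme gene Lpcat2 (log2 fold change -0.53, adjusted p = 1.03e-04).

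When the libraries were scaled to these 48 genes instead of all genes, the members were read relative to other microglial RNA. Fcrls had a log2 fold change of -2.26 (adjusted p = 1.63e-11), C1qb -1.15 (adjusted p = 5.19e-09), C1qc -1.11 (adjusted p = 1.17e-08) and C1qa -0.37 (adjusted p = 3.84e-04). Those of Tyrobp and Siglech were -0.50 (adjusted p = 4.87e-04) and -0.33 (adjusted p = 9.98e-04). C3, C4b and P2ry12 rose by 1.05 (adjusted p = 3.57e-04), 0.43 (adjusted p = 0.00687) and 0.33 (adjusted p = 0.0015). Of all genes called, 38.47% were lower in D2 in this scaling, against 53.6% when scaled to all genes. In this scaling 12 members fell and 5 rose, where 4676 of all 29883 genes were called. Cd68 was no longer called, and Ctss and Aif1 were called higher in D2. The 12 other members that fell therefore also fell relative to the rest of the microglial genes.

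**Figure D5:**
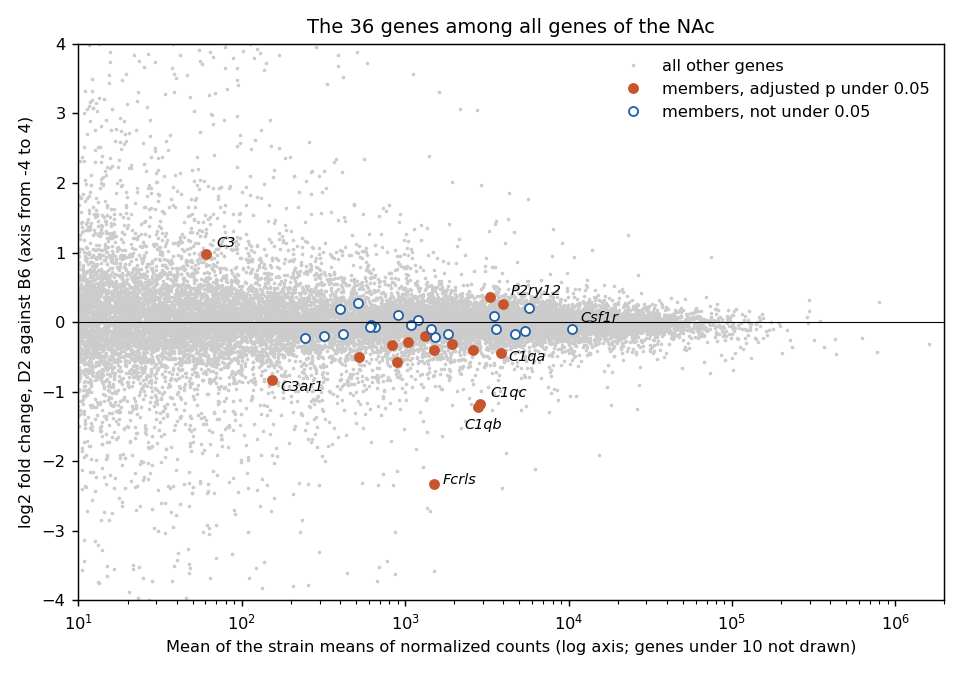
Log2 fold change of D2 against B6 (y axis) against the mean normalized count (x axis, log scale) for the 36 members (filled orange where called, open blue where not) among the other genes of the table (grey, from 10 normalized counts and within 4 in either direction). The 20 members that were not called lie close to 0, while Fcrls, C1qb and C1qc lie below most genes of like count.

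Signals received by microglia were followed in 16 genes, of which 1 rose and 1 fell, beside 8.5% and 9.83% of all genes. The gene that fell was Cx3cl1, the neuronal ligand of CX3CR1 (log2 fold change -0.27, adjusted p = 5.53e-04). The gene that rose was Cd200r1, the receptor for the neuronal protein CD200, named after its values were seen, with 22.1 ± 3.21 normalized counts in B6 and 75.2 ± 5.69 in D2 (SD, n = 5 per strain; log2 fold change 1.77, adjusted p = 2.04e-06). Of 20 genes raised in activated microglia, 4 rose and 1 fell, beside the same shares of all genes. This count of 5 became 3 without B6 replicate 1, B6 replicate 5, D2 replicate 3 or D2 replicate 5. It became 6 without B6 replicates 3 and 5 together. The gene that fell was Gpnmb, for which D2 mice are known to carry a truncating allele, with 155, 166, 366, 146 and 411 normalized counts in B6 and 14.7, 29.3, 17.0, 11.3 and 15.3 in D2 (log2 fold change -3.82, adjusted p = 1.10e-05). The strains did not overlap, and B6 replicates 3 and 5, the mice with high cortical neuron markers, had the highest counts. The chemokine gene Ccl6 rose from 136 ± 12.9 to 517 ± 36.7 (SD, n = 5 per strain; log2 fold change 1.93, adjusted p = 1.02e-08).

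Markers of other cell types that could share these genes were measured beside the members. For these lists and those of the next paragraph, the share called over all genes was 18.3%. Of 10 markers of macrophages at the brain's borders 4 rose and 1 fell, and none was at 0 in any mouse. This count of 5 became 3 without B6 replicate 3, B6 replicate 5, D2 replicate 1, D2 replicate 3 or D2 replicate 5, 3 without B6 replicates 3 and 5 together, and 3 with the replicate number as a block. Among them Mrc1, the most abundant, had 257 normalized counts in B6 and 249 in D2 (log2 fold change -0.04, adjusted p = 0.849), and their summed level was 646 to 853 normalized counts in B6 and 764 to 947 in D2. Markers of blood myeloid cells summed to 55.0 to 110.0 in B6 and 46.9 to 70.4 in D2, with 1 of the 10 in the table called lower, S100a8. That call was lost in 8 of the 10 fits that left out a mouse, all but those without B6 replicate 1 or D2 replicate 1, and without B6 replicates 3 and 5 together. Camp had no row, and Retnlg was at 0 in 5 libraries. Of 7 lymphocyte markers 1 was called lower, Cd4, with 4223 normalized counts in B6 and 2795 in D2. It made up most of the list, whose mean sums were 4292 and 2846. The T cell gene Cd3e had only 4.81 normalized counts in B6 and 1.14 in D2, and the cells that gave the Cd4 counts were not tested. The sums of the border macrophage and blood myeloid markers were under 1000 in every mouse and that of the members at least 62166, and the part of these cells in the results was not tested.

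Among other cells of the tissue, oligodendrocyte markers summed to 429973 to 628818 normalized counts in B6 and 325132 to 475169 in D2, with 3 of 5 called lower. The highest oligodendrocyte sums were those of B6 replicates 3 and 5, and without this pair of mice 0 of the 5 markers were called, while 1 was called without D2 replicate 5. Astrocyte markers summed to 99988 to 106195 and 95408 to 106804, with 2 of 5 called lower and 1 higher. Of 9 striatal neuron markers 5 fell, among them Penk (log2 fold change -0.52, adjusted p = 0.00737) and Drd2 (log2 fold change -0.46, adjusted p = 8.62e-06), with sums of 410011 to 544997 and 354111 to 429231. C4b is expressed by oligodendrocytes and astrocytes, and their part in its rise was not tested. Of 5 endothelial markers 0 were called in edgeR, where 2 had an unadjusted p under 0.05, and 2 in DESeq2. The erythroid markers had 3 of 5 called lower, led by the globin gene Hba-a2 (log2 fold change -5.47, adjusted p = 4.97e-10). The more abundant globin genes Hba-a1 (log2 fold change 0.08, adjusted p = 0.78) and Hbb-bs (log2 fold change -0.36, adjusted p = 0.13) were not called. Hba-a1 had 2292 normalized counts in B6 and 2431 in D2, and the cause of the fall of Hba-a2 was not tested. Choroid plexus markers had 1 of 4 called lower. Those of the meninges had 1 of 5 called higher, the proteoglycan gene Dcn (log2 fold change 0.64, adjusted p = 0.0104).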

How the data were processed

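A poly-A library was made from the NAc of each of 5 B6 and 5 D2 males. The authors trimmed reads with fastp, aligned them with STAR 2.7.10b to GRCm39 (Ensembl), sorted the alignments with SAMtools 1.6 and ran featureCounts on genes, and the deposited values are these raw counts, from which genes with a median of 0 had been removed (lowest row median 0.5). The strand setting and the handling of multiply mapped reads are not given in the sources used here.

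Counts were fitted with edgeR 4.0.16 in R 4.3.3 (TMM, quasi-likelihood F test, two-sided, strain as the only factor, Benjamini-Hochberg over 29883 genes), and the standard error is the absolute log2 fold change over the square root of F. Libraries held 96977262 to 116776714 counts. The p-values test the strain difference against the variation between libraries, which holds counting error and the spread between the 5 mice per strain. For genes with few counts, such as C3 (40.9 ± 3.54 in B6, SD, n = 5), counting error is not small beside that spread. Names and positions came from a GRCm39 annotation that named 29519 genes. Ratios within a mouse were tested between strains by exact permutation (two-sided). The members and lists were chosen with earlier results of these data known. Every member was named, with at most 5 genes per other list, those with the largest change among called genes with a mean of at least 100 and no overlap of the strains, plus C4a, Fcgr4 and Hc. Other genes outside this rule (Mbl2, Masp2, C5ar1, C5ar2, Itgb2, Cd200r1, Mrc1, S100a8, Retnlg, Cd4, Cd3e, Hba-a1 and Hbb-bs) were named after their values were seen. A gene that meets these criteria is left out of the text. Alternatives were DESeq2 1.42.0, its size factors, total counts, upper quartile, filterByExpr, at least 10 counts in every library, a threshold of 0.01, the replicate block, each mouse left out and the other microglial genes as reference. The fit without B6 replicates 3 and 5 was chosen after seeing the data. Scripts were tested on simulated data.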

Additional observations from a re-analysis of the deposited data

Results flagged for a closer look

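In each strain the highest or lowest mouse of every member was compared with its nearest neighbour, and a gap whose share of the whole range of the 5 mice passed Dixon's 95% critical value was taken as far from the others. Of 72 groups tested 4 passed, where chance flags about 1 in 20. C1qb in D2 replicate 4 was at 1441 normalized counts, with the nearest D2 mouse at 1715. Fcgr3 in the same mouse was at 615, with the nearest at 744. Slc2a5 in D2 replicate 4 was instead high, at 414 against 387. Ctss in B6 replicate 2 was at 6188, with the nearest B6 mouse at 5264. D2 replicate 4 was lowest of D2 and B6 replicate 2 highest of B6 for most members. Without D2 replicate 4, 12 members were called lower and 4 higher.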

How the results depend on the processing

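No called result changed sign. The uncalled P2ry13, Gpr34 and Cd53, all close to 0, changed sign under some alternatives, with Gpr34 and Cd53 going from -0.04 to 0.03 in log2 fold change when scaled to the other microglial genes. Over 684 fits of single members under the alternatives, 661 kept their side of the threshold, 17 gained it and 6 lost it. At a threshold of 0.01, 3415 genes were called in all, against 5478, and 7 of the other complement genes and 8 of the other microglial genes. Scaled to the other microglial genes, 5 members were called higher in D2. The cause was not tested beyond the scaling itself and the stricter threshold, and that scaling moved the median of all genes to 0.08. In the 10 fits that each left out a mouse, 3 to 4 members were called higher, 12 to 15 lower and 4636 to 5676 genes in all. DESeq2 called 4 members higher, 14 lower and 6208 genes. Of called genes 53.6% were lower in D2, 45.04% with total counts and 49.64% without B6 replicates 3 and 5, which left 2 members higher and 13 lower, since C4b was lost.

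Among the small marker lists, the calls of activated microglia ran from 3 to 6 in the fits without a mouse, those of border macrophages from 3 to 5, of blood myeloid cells from 0 to 1, of lymphocytes from 1 to 2 (2 without B6 replicate 4 or D2 replicate 3) and of oligodendrocytes from 1 to 4. At a threshold of 0.01 the activated and border macrophage lists had 2 calls each and the blood myeloid and oligodendrocyte lists 0. With at least 10 counts in every library the blood myeloid list had 0, and the activated and border macrophage lists 3 each. The block left 3 calls of border macrophages and 0 of blood myeloid cells.

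The replicate number as a block left 3 members higher, 13 lower and 4731 genes called. The deviations of mice with the same number correlated at -0.410 to 0.369 over 15388 genes, so the numbers do not pair the mice. Precision was limited for C3, the lowest member, and for complement genes under 100 normalized counts, and by the 5 mice per strain.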
